A study of Mus musculus with 6 samples.

Results

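The genes described here encode 3 families of myeloid cell-surface receptors: C-type lectin-domain proteins (Clec and Cd209 genes), sialic acid-binding Ig-like lectins (Siglec genes and Cd33), and paired Ig-like receptors (Lilr, Pira, Pirb and Cd300 genes). They were taken by symbol from the deposited gene table, as every row with a protein-coding transcript whose symbol starts with Clec and a digit, Siglec, Cd209, Lilr, Pira, Pirb or Cd300, or is Cd33. This gave 56 of 28795 genes, and 2 further rows with such symbols but no protein-coding transcript, Clec2i and Siglech, were left out. RNA was sequenced from mouse bone marrow monocytes, precursors of macrophages and osteoclasts, grown in M-CSF (50 ng/ml), the growth factor that keeps them alive. RANKL (50 ng/ml), the cytokine that turns these precursors into bone-resorbing osteoclasts, was given for 0 or 5 days, with 3 libraries per day. Strain, sex, age and genotype are not given in the sources used here, and all 6 libraries carry the same treatment label, so the groups rest on the time label. The protocol speaks of 5 days with RANKL or without it, while the time label of the controls is day 0, so it is unclear whether the controls spent the 5 days in M-CSF alone. If they did not, RANKL and time in culture cannot be told apart in any difference below. Whether the 3 libraries of each day are separate animals or cultures is not in the labels, so a p-value here reflects only library-to-library spread, which may be technical.

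Many of these receptors come in pairs that share ligands and oppose each other. Activating members carry a short tail and signal through an adaptor with an ITAM, a tyrosine motif that recruits the kinase Syk: the adaptors are DAP12 (gene Tyrobp) and the Fc receptor gamma chain (gene Fcer1g), and a few lectins such as Dectin-1 carry a shortened form of it (hemITAM) in their own tail. Inhibitory members carry an ITIM, a tyrosine motif in the tail that recruits the phosphatases SHP-1 (Ptpn6), SHP-2 (Ptpn11) and SHIP-1 (Inpp5d). In osteoclast precursors ITAM signalling acts beside RANK and feeds the calcium signal that activates the transcription factor NFATc1. Members were put into classes from textbook knowledge of the mouse proteins: 17 activating, 11 inhibitory, 11 endocytic or adhesion receptors, 4 ligands of NK cell receptors, 2 secreted proteins, 1 intracellular protein and 10 unclassified. Protein sequences were not used here, so no class was checked for its motif. The classes were chosen with earlier results of these data known.

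Totals ranged from 64616609 to 82721513 counts per library, and the 56 genes together took 0.256% ± 0.0149 (SD, n = 3) of the counts at day 0 and 0.160% ± 0.00826 at day 5. Replicate 1 of day 0 stood apart in holding 4.09% of its counts in the gene model CT010467, against 0.158% to 0.507% in the other 5 libraries. The labelled change of cell state was visible in the markers: all 7 osteoclast markers rose, with a summed level of 299 to 457 CPM (counts per 1000000 after TMM scaling) at day 0 and 25147 to 28165 CPM at day 5, and 5 of 7 macrophage markers fell. The other macrophage markers, Csf1r and Cd68, were not called. Csf1r had a log2 difference of -0.74, while Cd68 went the other way (0.55, without overlap between the days). All 7 macrophage markers, Lyz2 making up most of the sum, gave 19701 to 23170 CPM at day 0 and 7534 to 8905 CPM at day 5. Markers of other cells were also present. The 8 stromal markers summed to 14833 to 20324 CPM at day 0 and 10432 to 11391 CPM at day 5, the 7 neutrophil markers in the table to 40.9 to 53.4 and 12.9 to 24.6 CPM, and the 8 dendritic cell markers to 26.7 to 30.8 and 25.2 to 29.7 CPM, with Flt3 at 0 in all 6 libraries. The 4 platelet and megakaryocyte markers in the table summed to 134 to 173 CPM at day 0 and 18.6 to 19.1 CPM at day 5, with Pf4 the 1 tested. The 4 markers of mast cells, basophils and eosinophils summed to 26.1 to 34.7 and 69.8 to 70.9 CPM, with Ccr3 called higher and Mcpt8 not called. Lower values at day 5 can come from fewer cells of a type or from less RNA per cell, which bulk libraries cannot tell apart.

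Of the 56 genes, 31 reached the expression minimum for testing (at least 1 FPKM, fragments per kilobase of transcript and 1000000 fragments, in at least 3 libraries) and 25 did not. Siglec15, Pira2, Lilra6 and Clec2d were higher at day 5, 20 genes were lower, and 7 were not called, where a call needs both an adjusted p under 0.05 in edgeR's quasi-likelihood test and an absolute log2 difference that reaches 1. The same rule called 12.3% of all 11908 tested genes, 5.84% higher and 6.47% lower, against 12.9% higher and 64.5% lower among the tested receptors. Of these 31, 4 had a mean of at least 1 FPKM on only 1 day and so entered the test through that day: Siglec15 and Lilra6 through day 5, Cd300lf and Cd300ld2 through day 0. The median log2 difference, day 5 minus day 0, was -1.30 over the 31 and -0.00 over all genes tested. The days did not overlap in CPM for 30 of the 31 genes, and for 63.3% of all genes tested. With 3 libraries a day, an exact two-sided permutation test on a gene alone could not go below p = 0.1.

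**Figure D1:**
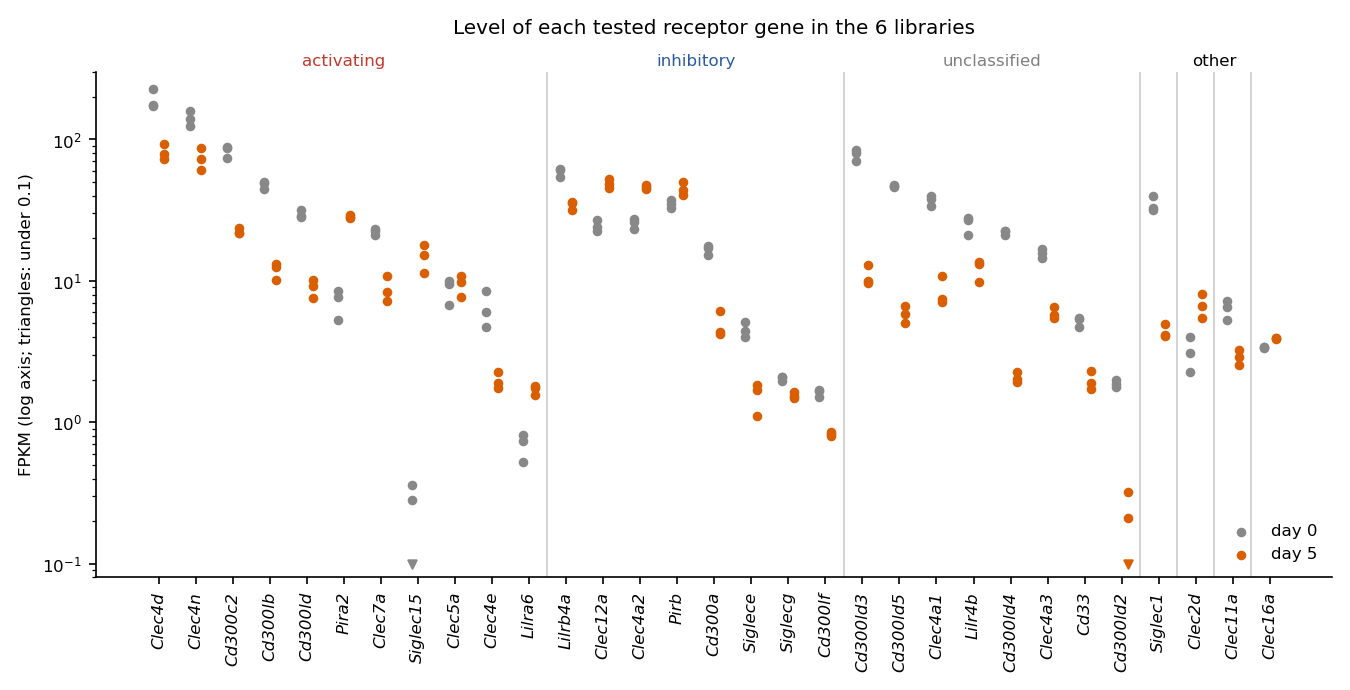
FPKM (log axis) of the 31 tested receptor genes in each of the 6 libraries, grouped by class, with day 0 in grey and day 5 in orange. Triangles mark libraries under 0.1 FPKM, and Clec5a is the gene whose days overlap.

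Of the 11 tested activating members, Siglec15, Pira2 and Lilra6 rose, 7 fell and Clec5a was not called, and the median log2 difference was -1.30. These are 27.3% higher and 63.6% lower, against 5.84% and 6.47% of all genes tested. Siglec15 and Lilra6 entered the test through day 5, so the share called higher leans on genes tested because of that day. Siglec15, a sialic acid receptor that signals through DAP12 and is needed for mature osteoclasts in mice, rose from near the detection limit. It had 0, 31 and 28 counts at day 0 and 996, 1525 and 1309 counts at day 5. In FPKM these were 0, 0.360 and 0.280 FPKM at day 0 and 11.4, 17.9 and 15.2 FPKM at day 5. Its lowest day 5 library was far above its highest day 0 library, and replicate 1 of day 0 held no count. The log2 difference was 6.003 ± 0.49 (SE, adjusted p = 1.48e-06), or 64.1-fold higher, a fold that rests on few counts at day 0. The gene (chromosome 18, 78043614 to 78057395, coordinates as in the deposited table, which match build GRCm38) averaged 14.8 ± 3.25 FPKM (SD, n = 3) at day 5.

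Pira2, an activating paired receptor for MHC class I that uses the Fc receptor gamma chain, had 7.65, 5.30 and 8.43 FPKM at day 0 and 29.2, 27.7 and 28.3 FPKM at day 5. The 3 day 5 libraries lay close together and well above those of day 0, a rise of 3.81-fold (log2 1.93 ± 0.14, adjusted p = 6.95e-07). Lilra6, an activating relative at the end of the same array away from Pirb, had 0.740, 0.520 and 0.810 FPKM at day 0 and 1.81, 1.57 and 1.74 FPKM at day 5 and rose 2.35-fold (log2 1.23 ± 0.21, adjusted p = 4.00e-04), a call lost with limma on log2(FPKM + 1), where the difference was 0.68. Pirb, the inhibitory receptor of the pair with Pira and a binder of MHC class I, had 35.1, 32.7 and 37.4 FPKM at day 0 and 50.1, 43.8 and 40.4 FPKM at day 5. Its days did not overlap, but its log2 difference of 0.29 ± 0.09 (adjusted p = 0.0207) was below the size needed for a call. The ratio of Pira2 to Pirb in FPKM was 0.218, 0.162 and 0.225 at day 0 and 0.582, 0.633 and 0.701 at day 5. Pira2 alone stayed below Pirb in all 6 libraries, and every day 5 ratio was above every day 0 ratio.

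The Pira2 value cannot be taken as that of 1 gene. Of all 100-base stretches of its annotated transcripts, 84.1% occur also in transcripts of other genes, most of them in Gm15922, while the figure was 11.9% for Lilra6 and 20.7% for Pirb. Between Pirb and Lilra6 the table lists 7 gene models on the minus strand of chromosome 7, all within 3731630 to 3898120. Besides Pira2, 4 of them were tested and all 4 were called higher, although they were named here after their values were seen: Gm15922 3.21-fold, Gm14548 2.69-fold, Gm15448 2.58-fold and Gm15925 2.24-fold. Summed over the 7 models, the array went from 60.3 ± 10.2 to 200.04 ± 5.34 CPM (SD, n = 3), or log2 1.73 ± 0.11 (adjusted p = 1.78e-07). The summed rise was 3.31-fold, beside 3.81-fold for Pira2 alone. At day 0 the sum was 65.5, 48.5 and 67.0 CPM, beside 172, 154 and 178 CPM for Pirb. At day 5 it was 199.98, 205 and 195 CPM, beside 232, 202 and 182 CPM for Pirb. In CPM, which are not corrected for gene length, the summed array was thus above Pirb in replicates 2 and 3 of day 5, unlike Pira2 alone. How the authors counted reads that match several copies is not stated in the labels. Reads counted for more than 1 copy would raise the sum, so its order with Pirb is uncertain.

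The bases upstream of Pira2, Lilra6 and Pirb are shown because they are near copies, although the first 2 genes rose and Pirb was not called. They come from RefSeq promoters of build GRCm38.p6, are given 5′ to 3′ on the gene's strand and stop before the first annotated exon. Capitals mark GAGGAAG, the letters of a PU.1-type ETS site (PU.1 is the ETS factor of myeloid cells), searched on both strands.
Pira2 (chr7:3845052-3845301, minus strand): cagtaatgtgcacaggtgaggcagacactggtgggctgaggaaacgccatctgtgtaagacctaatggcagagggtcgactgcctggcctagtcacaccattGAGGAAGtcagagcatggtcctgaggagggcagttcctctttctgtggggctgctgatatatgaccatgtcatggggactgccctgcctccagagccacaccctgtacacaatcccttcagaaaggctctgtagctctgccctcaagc
Lilra6 (chr7:3915504-3915751, minus strand): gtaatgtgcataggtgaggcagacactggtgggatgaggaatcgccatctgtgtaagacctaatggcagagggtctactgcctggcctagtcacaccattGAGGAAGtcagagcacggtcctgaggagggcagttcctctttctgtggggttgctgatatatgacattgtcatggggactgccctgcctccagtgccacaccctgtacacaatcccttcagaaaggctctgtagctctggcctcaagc
Pirb (chr7:3720392-3720632, minus strand): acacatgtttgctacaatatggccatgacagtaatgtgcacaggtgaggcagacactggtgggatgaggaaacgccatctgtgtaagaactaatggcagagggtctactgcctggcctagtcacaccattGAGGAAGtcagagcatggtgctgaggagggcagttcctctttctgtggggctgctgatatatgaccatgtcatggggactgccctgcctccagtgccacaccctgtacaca
Pira2 and Lilra6 were identical at 238 of the 248 bases that line up (96.0%). Pirb matched Pira2 at 208 of 213 bases (97.7%) and Lilra6 at 203 of 211 (96.2%). Pirb, although not called, also had a positive log2 difference (0.29). Whether the shared bases bear on any of these differences was not tested. The capital letters stand 148 bases before the RefSeq start of Pira2, 150 before that of Lilra6 and 120 before that of Pirb.

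Among the activating lectins, 4 of 5 tested were called lower, against 6.47% of all genes tested. Clec4d (MCL) and Clec4e (Mincle), which together recognise mycobacterial cord factor, and Clec4n (Dectin-2), a receptor for fungal mannans, all use the Fc receptor gamma chain and are neighbours on chromosome 6. Clec4d had the highest FPKM of all 56 genes at day 0, with 226, 175 and 174 FPKM at day 0 and 92.3, 73.2 and 79.4 FPKM at day 5. Replicate 1 of day 0 was the highest library, and the fall was 2.46-fold (log2 -1.30 ± 0.12, adjusted p = 5.27e-06). Clec4e had 8.41, 4.74 and 6.03 FPKM at day 0 and 2.26, 1.76 and 1.91 FPKM at day 5, again with replicate 1 highest at day 0, and fell 3.37-fold (log2 -1.75 ± 0.20, adjusted p = 1.71e-05). Clec4n had 159, 141 and 124 FPKM at day 0 and 86.5, 61.2 and 72.97 FPKM at day 5. Its log2 difference of -1.003 ± 0.13 (adjusted p = 5.31e-05) passed the size threshold narrowly and did not pass it in 11 of the 14 alternative fits, where it was nearest to 0, at -0.88, without replicate 1 of day 0.

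Clec7a, which encodes Dectin-1, the receptor for fungal beta-glucan with a hemITAM of its own, had 22.6, 20.96 and 23.2 FPKM at day 0 and 10.8, 7.24 and 8.30 FPKM at day 5, a fall of 2.65-fold (log2 -1.40 ± 0.13, adjusted p = 4.55e-06). Every day 5 library was below every day 0 library. Clec5a, a DAP12-linked lectin of myeloid cells (MDL-1), had 9.98, 6.70 and 9.48 FPKM at day 0 and 9.79, 7.72 and 10.7 FPKM at day 5. The days overlapped, and the log2 difference of 0.05 ± 0.16 (adjusted p = 0.827) changed sign without replicate 2 of day 0 or without replicate 3 of day 5.

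**Figure D2:**
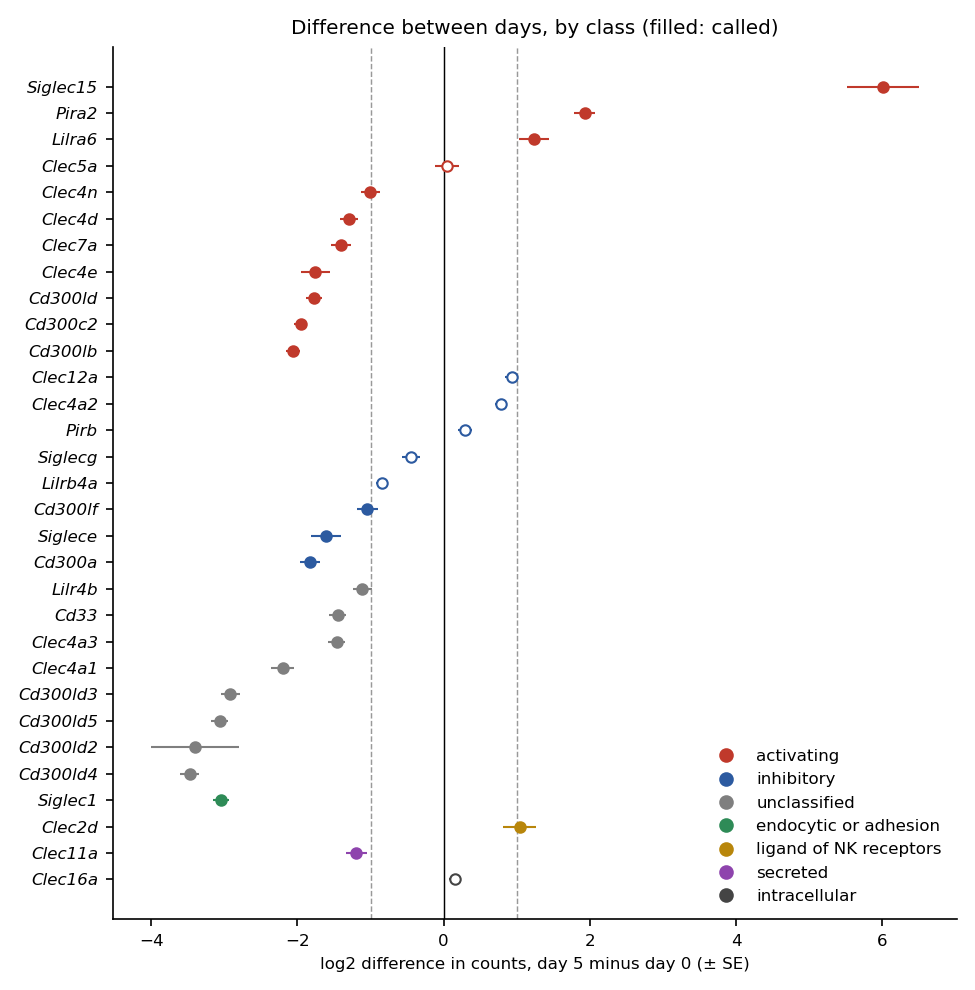
Log2 difference in counts between day 5 and day 0 with its standard error for the 31 tested genes, coloured by class, with filled points for called genes and dashed lines at a log2 of 1 in size. Siglec15 stands apart at 6.003, Pira2, Lilra6 and Clec2d pass the upper line, and the falls reach -3.47 for Cd300ld4.

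The inhibitory class held 8 tested members, of which 0 were called higher, 3 were called lower and 5 were not called in edgeR. These are 0% higher and 37.5% lower, against 5.84% and 6.47% of all genes tested. Among 8 genes, 0 higher is close to the share over all genes. The median log2 difference of the 8 members was -0.65. DESeq2 also called 0 higher. All 8 had an adjusted p under 0.05, as did 55.5% of all genes tested: Clec12a, Clec4a2 and Pirb with positive differences and 5 genes with negative ones. At an unadjusted p under 0.05 the same 3 genes were higher. Clec12a, an ITIM lectin of myeloid cells that senses uric acid crystals, had 26.8, 23.9 and 22.6 FPKM at day 0 and 45.1, 48.3 and 52.4 FPKM at day 5. Its days did not overlap, and its log2 difference of 0.93 ± 0.09 (adjusted p = 4.11e-06) was just under the size threshold, which it passed (1.03) without replicate 1 of day 0. Clec4a2, the ITIM lectin DCIR, had 27.4, 26.2 and 23.4 FPKM at day 0 and 44.4, 46.1 and 47.7 FPKM at day 5, likewise without overlap, and a log2 difference of 0.78 ± 0.08 (adjusted p = 6.20e-06).

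The other 5 inhibitory receptors had negative differences, those of Cd300a, Cd300lf and Siglece past the threshold. Lilrb4a, the ITIM receptor gp49B, was the most abundant of the class at day 0, with 61.5, 54.1 and 61.1 FPKM at day 0 and 35.8, 31.8 and 35.5 FPKM at day 5. It had a log2 difference of -0.84 ± 0.08 (adjusted p = 6.03e-06), without a call, and 34.7% of its 100-base stretches are shared, most of them with the overlapping gene model Gm49339. Siglece, an ITIM Siglec of neutrophils and macrophages, had 4.44, 3.99 and 5.14 FPKM at day 0 and 1.68, 1.10 and 1.84 FPKM at day 5 and fell 3.06-fold (log2 -1.61 ± 0.21, adjusted p = 4.92e-05). Neutrophil markers fell over the same days in part (3 of 5 tested lower, 2 higher), and their part in the fall of Siglece was not tested. Siglecg, an inhibitory Siglec known from B cells, had 2.08, 2.10 and 1.95 FPKM at day 0 and 1.53, 1.65 and 1.48 FPKM at day 5 and a log2 difference of -0.45 ± 0.12 (adjusted p = 0.00954), without a call. Of the 6 markers of B, T and NK cells in the table, 5 were too low to test, and the B cell markers Cd79a and Ms4a1 held at most 1 count in any library. Ly6d, the tested one, went the other way, with 0, 0 and 0 counts at day 0 and 191, 123 and 97 counts at day 5 (called higher, adjusted p = 4.99e-06). Ly6d entered the test through day 5 alone, and the part of such cells in the Siglecg value was not tested.

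The summed level of the activating genes was lower at day 5, while that of the inhibitory genes overlapped between the days on the TMM scale. The FPKM of the 17 activating genes summed to 604, 523 and 495 at day 0 and 292, 239 and 263 at day 5, and that of the 11 inhibitory genes to 177, 159.9 and 171 at day 0 and 186, 179 and 185 at day 5. Summed as CPM after TMM scaling, the inhibitory genes gave 896, 774 and 839 at day 0 and 863, 825 and 839.5 at day 5. The activating sum was lower in every day 5 library on both scales. The inhibitory FPKM of the days lay apart by a small margin (177 in the highest day 0 library and 179 in the lowest of day 5), but the CPM overlapped, with replicate 1 of day 0 the highest of all 6 libraries, so no rise is shown. The inhibitory share of the 2 sums together was 22.7, 23.4 and 25.6 at day 0 and 38.9, 42.9 and 41.4 at day 5, in percent, a mean of 23.9% ± 1.53 (SD, n = 3) and 41.05% ± 1.997. Clec4d and Clec4n made up most of the activating sum. Without these 2 genes the activating sum was 219, 207 and 197 at day 0 and 113, 104 and 110.5 at day 5, and the inhibitory share 44.9% ± 1.41 and 62.7% ± 0.483. These shares describe RNA, and the difference between the classes was not tested. They depend on the classes, whose motifs were not checked. They leave out the 10 unclassified receptors, whose FPKM summed to 233 ± 8.18 at day 0 and 47.6 ± 5.62 at day 5. The gene models between Pirb and Lilra6 without a receptor symbol are also left out.

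**Figure D3:**
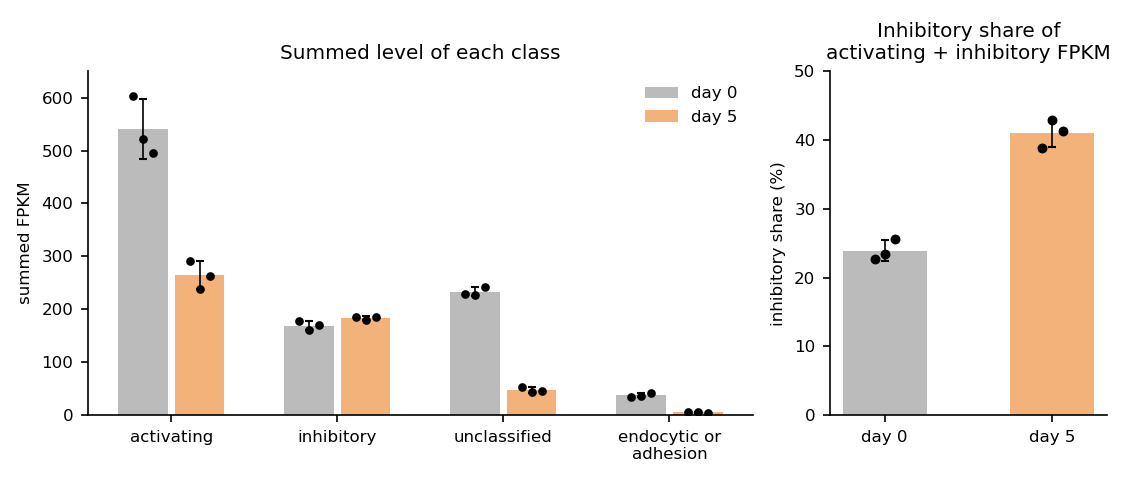
Left, summed FPKM of the activating (17 genes), inhibitory (11), unclassified (10) and endocytic or adhesion (11) receptors on each day. Right, the inhibitory share of activating plus inhibitory FPKM in percent. Bars are means, error bars SD and points the 3 libraries of a day; the activating sum falls from 541 to 264 FPKM while the inhibitory sum lies between 160 and 186 FPKM in all 6 libraries.

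The Cd300 genes, lipid-binding Ig-like receptors of myeloid cells, were lower at day 5, activating and inhibitory members alike. Of the 11 members in the array on chromosome 11 (114890041 to 115133992), 9 were tested and all 9 were lower, with log2 differences from -3.47 to -1.04. Over all genes tested, 6.47% were lower. Cd300a, an ITIM receptor for phosphatidylserine and phosphatidylethanolamine, had 17.8, 15.2 and 17.1 FPKM at day 0 and 6.13, 4.20 and 4.38 FPKM at day 5 and fell 3.55-fold (log2 -1.83 ± 0.14, adjusted p = 9.07e-07). Cd300lb, an activating partner of DAP12, had 49.1, 49.8 and 44.4 FPKM at day 0 and 13.2, 10.2 and 12.5 FPKM at day 5 and fell 4.16-fold (log2 -2.06 ± 0.10, adjusted p = 1.89e-08). The ratio of Cd300lb to Cd300a in FPKM was 2.76, 3.28 and 2.60 at day 0 and 2.15, 2.42 and 2.86 at day 5, with overlap between the days. Cd300c2 had 86.8, 87.98 and 74.5 FPKM at day 0 and 23.7, 21.6 and 21.8 FPKM at day 5, a fall of 3.87-fold, and its ratio to Cd300a also overlapped (5.01 ± 0.727 at day 0 and 4.66 ± 0.697 at day 5). Cd300ld, a partner of the Fc receptor gamma chain, went from 29.6 ± 1.95 to 9.01 ± 1.31 FPKM, 3.43-fold lower. Cd300lf, an ITIM receptor that mouse norovirus uses for entry, had 1.69, 1.52 and 1.66 FPKM at day 0 and 0.820, 0.800 and 0.850 FPKM at day 5, and its fall of 2.06-fold (log2 -1.04 ± 0.14, adjusted p = 7.39e-05) lost the size threshold in 4 of the 14 alternative fits.

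The deepest falls of the array were those of Cd300ld2, Cd300ld3, Cd300ld4 and Cd300ld5, close relatives of Cd300ld left unclassified here. Cd300ld3 had 70.9, 80.9 and 84.6 FPKM at day 0 and 13.03, 9.96 and 9.62 FPKM at day 5, Cd300ld5 had 47.3, 45.9 and 47.8 FPKM at day 0 and 6.67, 5.80 and 5.07 FPKM at day 5 and Cd300ld4 had 21.02, 22.5 and 22.6 FPKM at day 0 and 1.92, 2.03 and 2.26 FPKM at day 5. Reads can hardly be divided between them, since 100% of the 100-base stretches of Cd300ld5, 86.7% of those of Cd300ld4 and 80.9% of those of Cd300ld3 occur in another copy, against 16.2% for Cd300ld2. Their single values and their order are therefore uncertain. Summed, the 4 genes went from 136 ± 5.33 to 16.6 ± 2.17 CPM, 8.22-fold lower (log2 -3.04 ± 0.10, adjusted p = 1.00e-09).

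The upstream bases of the 3 near-identical genes are shown because they too are near copies. Reads can hardly be divided between these genes, so their falls are not 3 separate observations. The same letters GAGGAAG are in capitals, and the bases again come from RefSeq promoters of GRCm38.p6.
Cd300ld3 (chr11:115048410-115048580, minus strand): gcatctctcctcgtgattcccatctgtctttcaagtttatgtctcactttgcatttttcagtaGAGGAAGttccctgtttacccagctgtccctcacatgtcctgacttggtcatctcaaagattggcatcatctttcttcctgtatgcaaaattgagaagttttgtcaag
Cd300ld4 (chr11:115027013-115027183, minus strand): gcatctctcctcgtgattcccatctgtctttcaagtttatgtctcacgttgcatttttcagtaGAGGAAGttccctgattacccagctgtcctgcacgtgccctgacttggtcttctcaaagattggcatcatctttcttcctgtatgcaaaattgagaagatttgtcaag
Cd300ld5 (chr11:115037770-115037940, minus strand): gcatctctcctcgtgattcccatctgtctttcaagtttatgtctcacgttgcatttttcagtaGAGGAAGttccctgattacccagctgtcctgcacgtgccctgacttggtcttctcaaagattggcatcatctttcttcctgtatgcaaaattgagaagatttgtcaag
Over 171 bases Cd300ld4 and Cd300ld5 were identical, and Cd300ld3 differed from each at 8 bases (95.3% identity). The letters GAGGAAG stand 187 bases before the RefSeq start in all 3.

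**Figure D4:**
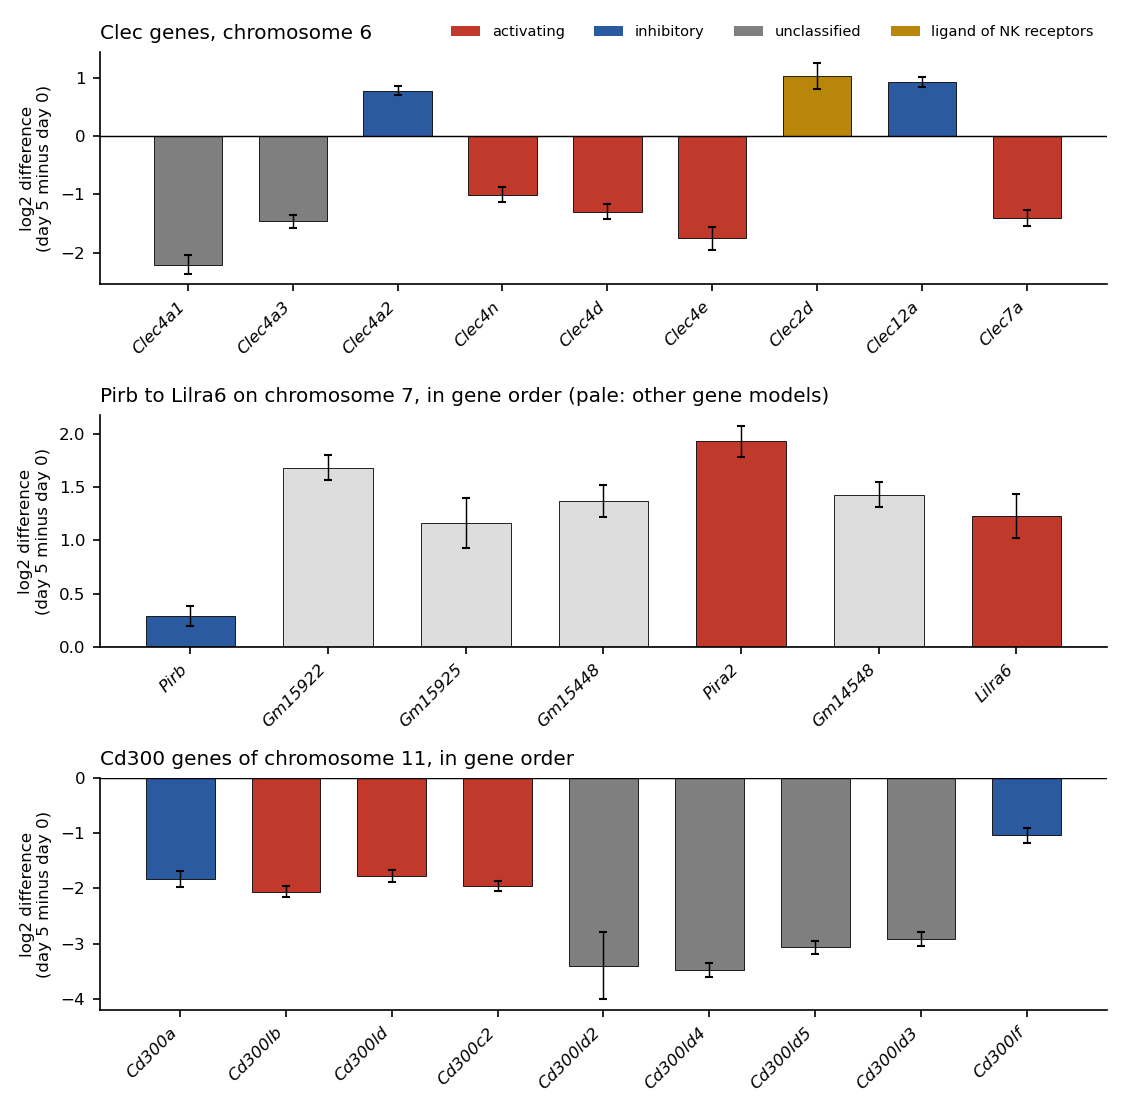
Log2 difference (day 5 minus day 0, with SE) of the tested genes in 3 arrays, in gene order, coloured by class; pale bars are gene models between Pirb and Lilra6 that have no receptor symbol in the table. Every bar from Pirb to Lilra6 points up, every Cd300 bar points down, and the Clec genes of chromosome 6 point both ways.

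In the Clec4a genes, a small array of DCIR relatives on chromosome 6, neighbours differed in sign. Clec4a1 had 40.1, 34.02 and 38.1 FPKM at day 0 and 10.8, 7.46 and 7.13 FPKM at day 5 and fell 4.61-fold (log2 -2.20 ± 0.16, adjusted p = 4.67e-07). Clec4a3 had 16.7, 15.7 and 14.5 FPKM at day 0 and 5.48, 5.74 and 6.53 FPKM at day 5 and fell 2.76-fold (log2 -1.46 ± 0.11, adjusted p = 9.69e-07). Per FPKM of Clec4a2, which itself was not called, Clec4a1 was at 1.46, 1.30 and 1.63 at day 0 and 0.243, 0.162 and 0.149 at day 5. The order of the pair thus turned: Clec4a1 was above Clec4a2 in every day 0 library and below it in every day 5 library. Of the 100-base stretches of Clec4a2, 2.1% are shared with Clec4a4, and none of Clec4a1 or Clec4a3 are shared with another gene.

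Clec4a1 and Clec7a fell together and are the members whose upstream bases hold GGAA and GAAA with 2 bases between them, a composite of ETS and IRF letters, on either strand. They are shown with the match in capitals, which here is on the opposite strand.
Clec4a1 (chr6:122921598-122921847, plus strand): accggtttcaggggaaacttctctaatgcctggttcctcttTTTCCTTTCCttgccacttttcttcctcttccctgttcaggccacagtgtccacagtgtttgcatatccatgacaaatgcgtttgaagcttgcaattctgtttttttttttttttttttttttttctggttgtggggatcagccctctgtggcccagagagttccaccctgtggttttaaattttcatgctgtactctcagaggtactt
Clec7a (chr6:129472780-129473029, minus strand): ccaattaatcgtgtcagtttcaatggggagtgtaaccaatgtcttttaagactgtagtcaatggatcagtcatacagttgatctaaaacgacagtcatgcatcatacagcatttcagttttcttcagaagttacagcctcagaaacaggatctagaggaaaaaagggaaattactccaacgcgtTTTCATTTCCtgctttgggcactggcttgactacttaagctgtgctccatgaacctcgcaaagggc
The match lies 209 bases before the RefSeq start of Clec4a1 and 66 before that of Clec7a. This pattern is in 2.38% of the 27025 upstream windows of the same length (250 bases) in the table, and in 2 of the 26 windows matched to the 31 tested members. Windows were counted at full length here, and those of some members hold annotated exon bases. GAGGAAG is in 10.4% of all windows and in 17 of the 26 (65.4%), namely in 2 of 3 genes called higher, 10 of 17 called lower and 5 of 6 not called. It thus occurred on both sides of the comparison. Near copies count separately there: Cd300ld3, Cd300ld4 and Cd300ld5 are 3 of the lower genes, and both of the higher genes, Pira2 and Lilra6, share their sequence with Pirb, which was not called. The other letters searched on both strands were TGGAAA (NFAT core; 9 of the 26 windows, 18.7% of all), TGANTCA (AP-1; 1 and 6.87%), CACGTG (E-box; 2 and 6.05%), TCATGTG (M-box core; 1 and 3.22%), GAAA repeated after 2 bases (interferon response; 1 and 3.04%) and TTGCNNAA (C/EBP; 5 and 9.55%). A match describes the letters and does not show that a factor binds.

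Of the 11 endocytic or adhesion receptors and the 10 unclassified ones, 1 and 8 were tested, and all of these were called lower. The share called lower over all genes tested was 6.47%. Siglec1, the sialic acid receptor CD169 of tissue macrophages, had 31.8, 32.96 and 39.5 FPKM at day 0 and 4.97, 4.05 and 4.17 FPKM at day 5, the deepest fall outside the Cd300ld copies (8.24-fold, log2 -3.04 ± 0.11, adjusted p = 2.52e-09). Cd33, whose mouse protein lacks the clear inhibitory motif of the human protein, had 4.70, 5.39 and 5.46 FPKM at day 0 and 2.29, 1.73 and 1.90 FPKM at day 5 and fell 2.73-fold (log2 -1.45 ± 0.11, adjusted p = 9.86e-07). Lilr4b, the relative of Lilrb4a known as gp49A that has no ITIM, had 26.95, 21.2 and 27.6 FPKM at day 0 and 13.6, 9.84 and 13.2 FPKM at day 5 and fell 2.16-fold (log2 -1.11 ± 0.13, adjusted p = 2.95e-05). Lilrb4a, Lilr4b and Gm49339 share exons or sequence, and their sum went from 488 ± 55.2 to 256 ± 25.2 CPM, with a log2 difference of -0.93 ± 0.10 (adjusted p = 1.26e-05), below the size threshold.

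The remaining tested genes are not myeloid signalling receptors. Clec2d, whose protein is a ligand that NK cell inhibitory receptors read, had 4.01, 3.09 and 2.28 FPKM at day 0 and 5.45, 8.08 and 6.59 FPKM at day 5 and rose 2.05-fold (log2 1.04 ± 0.23, adjusted p = 0.00240). The days did not overlap, but the size threshold was lost in 3 of the 14 alternative fits, with 0.87 without replicate 3 of day 0. Clec11a, a growth factor secreted by bone marrow stromal cells, had 6.54, 7.25 and 5.27 FPKM at day 0 and 2.53, 3.25 and 2.89 FPKM at day 5 and fell 2.29-fold (log2 -1.20 ± 0.14, adjusted p = 3.03e-05). Stromal markers fell in part over the same days (2 of 7 tested were called lower, median log2 difference -0.70), and their part in the fall of Clec11a was not tested. Clec16a, an intracellular protein of autophagy and mitophagy, had 3.39, 3.37 and 3.41 FPKM at day 0 and 3.89, 3.96 and 3.92 FPKM at day 5 and a log2 difference of 0.15 ± 0.08 (adjusted p = 0.126), which was not called.

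The 25 untested genes had at most 1.45 FPKM in any library, and 15 of them had a mean under 0.1 FPKM on both days. Clec10a, the galactose lectin MGL1, lay just outside the minimum, with 1.45, 1.34 and 0.970 FPKM at day 0 and 0.680, 0.530 and 0.300 FPKM at day 5. Cd300lg, an endothelial adhesion receptor, had 65, 117 and 89 counts at day 0 and 11, 4 and 0 counts at day 5, and Cd300e, an activating DAP12 partner of monocytes, had 93, 55 and 132 counts at day 0 and 31, 10 and 12 counts at day 5. When all 26750 genes with any count were fitted, these 3 were called lower and none of the 25 was called higher in edgeR. That fit called 2303 of the 26750 genes, in either direction. The 6 endothelial markers summed to 17.4 to 18.8 CPM at day 0 and 7.14 to 8.88 CPM at day 5, and their part in the fall of Cd300lg was not tested. Cdh5, the tested one, was 2.38-fold lower and entered the test through day 0 (mean 1.42 FPKM, and 0.62 FPKM at day 5). The 6 Cd209 genes (DC-SIGN relatives) reached at most 0.59 FPKM (Cd209f), and the other untested members included Clec9a of cross-presenting dendritic cells and Clec4f of Kupffer cells, each at 0.04 FPKM or less in every library.

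Of 16 adaptors and effectors of ITAM signalling, 1 rose and 2 fell (6.25% and 12.5%, against 5.84% and 6.47% of all genes tested; median log2 difference -0.21). Fcer1g, the gamma chain adaptor, had 252, 256 and 236 FPKM at day 0 and 91.9, 96.3 and 86.5 FPKM at day 5 and fell 2.83-fold (log2 -1.50 ± 0.07, adjusted p = 2.31e-08), while Tyrobp, which encodes DAP12, had 338, 339.9 and 253 FPKM at day 0 and 253, 306 and 261 FPKM at day 5 and a log2 difference of -0.24 ± 0.12 (adjusted p = 0.102). The kinase Lyn fell 2.12-fold, and Malt1, the protease of the Card9 and Bcl10 complex below Dectin-1, rose 4.12-fold (14.6 ± 2.33 to 60.1 ± 6.25 CPM). Malt1 averaged 0.753 FPKM at day 0 and 3.25 FPKM at day 5, so this 1 rise entered the test through day 5. Syk had a log2 difference of 0.75 ± 0.07 (adjusted p = 5.39e-06), below the size threshold. Of 6 effectors of ITIM signalling, Dok2, an adaptor that dampens kinase signals, fell 2.22-fold and none rose, with differences of -0.97 ± 0.10 for Inpp5d (adjusted p = 6.55e-06) and -0.43 ± 0.08 for Ptpn6 (adjusted p = 7.86e-04).

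Related receptors outside the symbol rule gave 1 rise and 9 falls among 14 tested of 20. These are 7.14% and 64.3%, against 5.84% and 6.47% of all genes tested, and the median log2 difference was -1.37. This list and those of adaptors, effectors and sialic acid genes were chosen with earlier results of these data known. Oscar, the collagen receptor of osteoclasts that pairs with the Fc receptor gamma chain, went from 1.20 ± 0.265 to 130.4 ± 2.27 CPM. It averaged 0.600 FPKM at day 0 and 68.9 FPKM at day 5, so this 1 rise entered the test through day 5. Pilra (inhibitory) and Pilrb1 (activating), a further receptor pair, fell 2.41-fold and 3.31-fold, and Lair1, an inhibitory collagen receptor, fell 3.64-fold. Of 27 genes of sialic acid synthesis, transfer and removal in the table, which make or cut the sugars that Siglecs bind, 19 were tested, 4 rose and 2 fell (21.1% and 10.5%, against the same shares of all genes), with a median of -0.02. St8sia6, a sialyltransferase that adds a further sialic acid, had 10, 10 and 17 counts at day 0 and 927, 1154 and 1450 counts at day 5 and rose 92.6-fold (log2 6.53 ± 0.25, adjusted p = 4.00e-09). It averaged 0.02 FPKM at day 0 and 2.06 FPKM at day 5. It thus entered the test through day 5, and its fold rests on few counts at day 0. St3gal1, St6galnac4 and St8sia4 rose 2.75-fold, 2.33-fold and 2.31-fold, and St3gal5, the enzyme that makes the ganglioside GM3, fell 3.35-fold (174 ± 4.80 to 51.9 ± 2.67 CPM). Neu3, a membrane sialidase, fell 2.19-fold and entered the test through day 0 (mean 1.33 FPKM, and 0.63 FPKM at day 5).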

How the data were processed

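Poly(A) RNA was sequenced from 6 libraries of mouse bone marrow monocytes, 3 per day, per the labels' protocols. Tools listed in the submitters' processing notes are HISAT2, StringTie, fastp and edgeR, with no version or role, and the human build GRCh38, while the gene identifiers are mouse. All 56 members are in GENCODE M21 (GRCm38), 53 with the same start and end. Per its headers, the deposited table holds counts per gene, taken as raw, and FPKM values that the authors scaled for length and depth. The library kit marks strand (dUTP), per the labels' protocols, but strand and multiple-mapping settings of the counting are not given in the sources used here.

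Genes with at least 1 FPKM in at least 3 of 6 libraries (11908) were tested on the counts with edgeR 4.0.16 (R 4.3.3; TMM scaling, quasi-likelihood test, Benjamini-Hochberg adjustment over all 11908) and called where the adjusted p was under 0.05 and the absolute log2 difference reached 1. CPM are counts per 1000000 after TMM scaling, and SE is the log2 difference over the root of the F statistic. On simulated counts for these genes edgeR recovered 99 of 100 changes of log2 1.5 and 99 of 100 of log2 2, with 5 false calls. These counts were drawn with the dispersions that edgeR fitted to these data. Both sizes lie above the threshold, so calls near a log2 of 1 were not checked by it. No 2 libraries of a day agreed within sampling noise (chi-square per degree of freedom at least 22.9). Sequence sharing was counted as 100-base stretches of GENCODE M21 transcripts. Alternatives were DESeq2 1.42.0, limma 3.58.1 on log2(FPKM + 1) and log2(FPKM + 0.1), other scalings and filters, a replicate block and each library left out. Every member may be named, and other genes come from fixed lists unless stated. Of the repeated symbol St6galnac2 the more abundant entry was used. Members, classes and lists were chosen with earlier results of these data known. Figures were drawn with matplotlib 3.10.9.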

Additional observations from a re-analysis of the deposited data

How the results depend on the processing

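Of the 31 tested members, 23 kept their side of the threshold and their sign in every alternative fit with the size threshold, and 8 did not in at least 1: Clec4n, Clec5a, Lilra6, Cd300lf, Clec12a, Clec2d, Clec11a and Lilr4b. Clec5a, not called in any fit, ranged from -0.10 to 0.19 with each library left out, with negative values when day 0 lacked replicate 2 (-0.10) or day 5 lacked replicate 3 (-0.05). Over all genes, 1465 were called, 2303 without the filter on low values, 2366 with filterByExpr, 973 with limma on log2(FPKM + 1) and 6608 without the size threshold. Members called higher numbered 4, but 2 with limma on log2(FPKM + 1), where Lilra6 and Clec2d fell short, and 7 without the size threshold. Inhibitory members called higher numbered 0, 3 without the size threshold and 1 (Clec12a) without replicate 1 of day 0, and those called lower 3, and 5 without the size threshold. The median log2 difference of inhibitory members was -0.65, and -0.39 and -0.57 with limma at pseudocounts of 1 and 0.1; that of activating members was -1.30, and -1.13 without replicate 1 of day 0. The cause was not tested. With each library left out in turn, 1446 to 1525 genes were called, with 3 to 5 members higher and 18 to 20 lower. For activating members these counts were 3 higher throughout and 6 to 7 lower, and for inhibitory members 0 to 1 higher and 2 to 3 lower. The medians ranged from -1.40 to -1.13 (activating) and from -0.66 to -0.59 (inhibitory). Library totals without TMM moved the median of all genes from -0.00 to 0.05. Same-numbered libraries of the days did not deviate together (r of -0.0726, 0.147 and 0.0256), and the fit with the replicate block called 1470 genes, 4 members higher and 20 lower. Summing near-identical copies, an alternative chosen after the data were seen, ended the call of Lilr4b (-0.93). For the 25 untested genes, all at 1.45 FPKM or less, low counts limit what could be detected.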
